A study of Mus musculus with 36 samples.

Results

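The comparison described here is between reprogramming mouse cells with and without an inhibitor of the histone methyltransferase DOT1L, at day 2 of a timecourse. It uses 4 of the 36 RNA sequencing libraries, 2 from mouse embryonic fibroblasts (MEFs) reprogrammed for 2 days with doxycycline and DMSO, and 2 from fibroblasts given doxycycline together with the inhibitor SGC0946 from day 0 to day 2. The libraries were chosen by their titles. Every timecourse and lentivirus library, controls included, came from E13.5 MEFs homozygous for a cassette at the Col1a1 locus that encodes Oct4, Klf4, Sox2 and c-Myc in 1 transcript, and heterozygous at the Rosa26 locus for the reverse tetracycline transactivator that drives it. Doxycycline turns on the cassette, so the controls were reprogramming cells too. Uninduced MEFs received no doxycycline. The libraries set beside the day 2 pair are day 4 cells of the same timecourse, given 4 days of doxycycline with DMSO throughout, with SGC0946 throughout (full window) or with SGC0946 on days 0 to 2 and then DMSO (early window). A separate experiment supplies day 2 cells that also carried an empty lentivirus or a Cdh1 lentivirus, with doxycycline and either DMSO or SGC0946. It also supplies uninduced MEFs with the empty virus, and embryonic stem cells (ESCs). Each of these groups has 2 libraries. The labels do not say whether replicates were separate cultures or embryos, so p-values measure the spread between these libraries, which may be technical.

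DOT1L is the enzyme that methylates lysine 79 of histone H3, a mark laid down across the bodies of transcribed genes, and SGC0946 is a small molecule that occupies its cofactor pocket. DOT1L acts in complexes with transcription elongation factors, and fusions of its partners with MLL keep HOXA genes on in leukaemia. During reprogramming fibroblasts lose matrix and contractile genes and gain epithelial junctions before the pluripotency network appears, and DOT1L inhibition is known to raise the yield of reprogrammed colonies.

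Gene counts summed to 41675505 and 44743121 in the control libraries and to 45346101 and 50866706 in the inhibitor libraries. Levels are given as counts-per-million (CPM), on library sizes scaled by the trimmed mean of M values (TMM). Tests are edgeR's quasi-likelihood tests over all 14473 genes kept by the filter on low counts, in 1 fit of the 14 timecourse libraries, and the threshold for a call is a p of 0.05 after Benjamini-Hochberg adjustment. Values after ± are standard errors of the log2 fold change, inhibitor over control. Reprogramming cells grew on irradiated feeder MEFs, whose RNA the counts do not separate. In such bulk samples, fewer cells of a type and less RNA per cell cannot be told apart. Dot1l, which encodes the inhibitor's target, stood at 85.5 and 89.9 CPM in the controls and 91.7 and 88.2 CPM with the inhibitor. Its groups overlapped, and the log2 fold change was 0.04 ± 0.04 (adjusted p = 0.618). An enzyme inhibitor need not change its target's mRNA, so this level does not check the labels.

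After 2 days with the inhibitor, many small decreases were called among well-expressed genes and fewer large increases among weakly expressed ones. Small changes of scarce genes were not detectable at this depth. Of the 14473 genes tested, 2583 were called (17.8%), 1264 higher (8.73%) and 1319 lower (9.11%). The calls were balanced in number and unequal in size. The median log2 fold change was 0.45 among genes called higher, which is 1.37-fold, and -0.18 among genes called lower, which is 0.883 of the control level, against -0.0046 over all genes tested. At 2-fold or more, 214 genes were higher (1.48%) and 9 lower (0.0622%). At 1.5-fold the counts were 463 and 25, and at 4-fold they were 35 and 3. Scaling by upper quartile turned the split to 1511 higher and 872 lower, and a limma fit on the deposited transcripts-per-million (TPM) gave 1270 and 494. Without any 1 of the 4 libraries the count was between 1510 and 1583, and 963 genes, 486 higher and 477 lower, were called with all 4 libraries and in each of those 4 fits. All 2583 called genes had both inhibitor libraries on the same side of both controls, a pattern that 4071 tested genes showed upward and 4502 downward. No gene was switched on outright at the levels set. Of 6010 genes under 0.1 CPM in both controls, 0 reached 0.5 CPM in both inhibitor libraries, and 0 showed the converse. Only 18 tested genes reached the filter's 0.231 CPM in both inhibitor libraries and in no other group, and 6 of them were called.

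**Figure D1:**
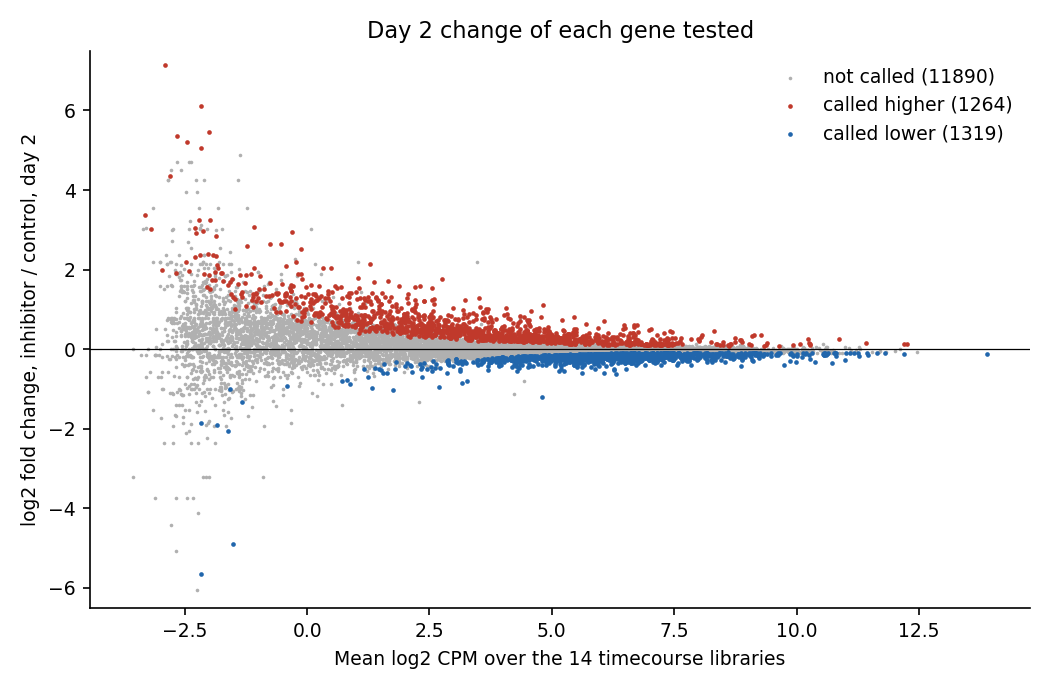
Change at day 2 (log2 fold change, inhibitor over control, vertical axis) against level (mean log2 CPM over the 14 timecourse libraries, horizontal axis) for each of the 14473 genes tested, with the 1264 called higher in red and the 1319 called lower in blue. The red points reach far above 0 at low levels, while the blue points form a thin band just under 0 at high levels.

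Gene classes drawn from other libraries showed the same slope in the calls. The classes came from the empty-virus experiment, so they use none of the 4 libraries tested. Among 1787 genes under 1 CPM in the day 2 control cells of that experiment, 181 were called higher and 10 lower, and 123 of the 181 were at least 2-fold higher. Among 2879 genes at 1 to 10 CPM there were 481 higher and 69 lower. The order turned above that level. Among 7248 genes at 10 to 100 CPM there were 464 higher and 801 lower, and among 2245 genes over 100 CPM 116 higher and 436 lower. From the lowest class to the highest, the median log2 fold change of all genes tested was 0.38, 0.11, -0.024 and -0.029. Small changes are harder to call in scarce genes, so the shares of calls also reflect detection. The split of higher and lower calls moved with the scaling too, as given above. A second class used the change from uninduced MEFs to day 2 in empty-virus cells without inhibitor. Of 1683 genes that fell by 2-fold or more on reprogramming, 21.5% were called higher with the inhibitor and 4.10% lower. Of 1368 genes that rose by 2-fold or more, 12.7% were higher and 15.5% lower, and of 11108 other genes 6.36% and 9.32%. The genes that reprogramming lowered thus had the highest share of increases of the 3 classes. Their median level was also lower, at a mean log2 CPM of 1.73 against 4.96 for the other genes, and the part of level in this difference was not tested.

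**Figure D2:**
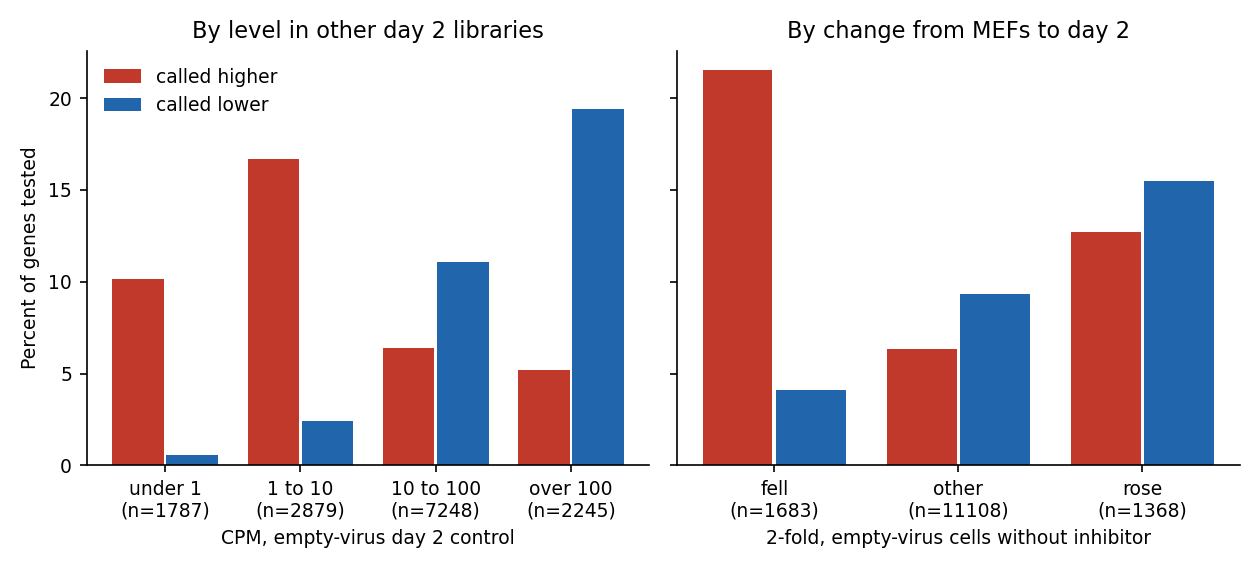
Percent of genes tested that were called higher (red) or lower (blue) at day 2, by level in the empty-virus day 2 control (left, CPM) and by change from MEFs to day 2 in empty-virus cells without inhibitor (right), with the number of genes under each class. Lower calls climb from 0.560% under 1 CPM to 19.4% over 100 CPM, and higher calls peak at 16.7% in the class of 1 to 10 CPM.

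Above a mean log2 CPM of 2 over the 14 timecourse libraries, the 14 largest increases were Enpp2, Ecel1, Tmem26, Atp2a3, Krt18, Pkp1, Cdh1, Krt8, Tril, Trpv4, Bai2, Stap2, Cldn3 and Gm684, with a median log2 fold change of 1.27. They included 5 genes of epithelial cells. The floor averages over the day 4 libraries too, so a gene scarce at day 2 can pass it through its day 4 levels. Ecel1 had means of 0.170 CPM in the day 2 controls and 0.507 CPM with the inhibitor. Its day 4 means were 3.20 CPM in controls, 5.72 CPM in the early window and 15.8 CPM in the full window. Cdh1, which encodes E-cadherin, the adhesion molecule of epithelial junctions, stood at 3.14 and 2.92 CPM in the controls and at 7.12 and 7.65 CPM with the inhibitor. The groups were far apart, and the log2 fold change was 1.29 ± 0.11 (adjusted p = 2.07e-11). Uninduced MEFs held 0.0661 CPM of it on average, so the gene had already appeared in the day 2 controls. Enpp2, the secreted enzyme autotaxin, which makes lysophosphatidic acid, rose from 0.622 and 0.556 CPM to 2.16 and 1.87 CPM, by 1.77 ± 0.22 (adjusted p = 1.27e-07). Atp2a3, a calcium pump of the endoplasmic reticulum, rose from 0.746 and 0.810 CPM to 2.58 and 2.01 CPM, by 1.55 ± 0.20 (adjusted p = 2.85e-07). Trpv4, a calcium channel of the plasma membrane, rose from 2.04 and 1.81 CPM to 4.68 and 4.33 CPM, by 1.23 ± 0.13 (adjusted p = 5.77e-09). In each of these the lowest inhibitor library was at more than 2-fold the highest control, while the levels remained under 10 CPM. Of the 14 genes, Enpp2, Tmem26, Krt18 and Tril were higher still in uninduced MEFs, at means of 4.05, 12.7, 9.72 and 8.27 CPM. For the rest of the 14 the MEF mean lay below the inhibitor mean.

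The same rule of size and level gave 14 decreases, Nnat, Pcdhgc4, Cxcr4, Fcrls, Zfp750, Nfix, Ggh, Fzd5, Gpr149, Pnpla3, Zim1, Atl1, Cnn1 and Meox2, with a median log2 fold change of -0.61. Nnat, an imprinted gene for a small membrane protein of the endoplasmic reticulum, fell from 25.5 and 25.2 CPM to 11.0 and 11.1 CPM, by 1.19 ± 0.07 on the log2 scale (adjusted p = 7.71e-16). Cxcr4, the receptor of the chemokine Cxcl12, went from 6.25 and 5.25 CPM to 3.14 and 3.22 CPM, a change of -0.85 ± 0.12 (adjusted p = 6.26e-07). In both genes the inhibitor libraries lay far below the controls. Ggh, a lysosomal enzyme that trims folates, stood at 129 and 126 CPM in the controls and 81.5 and 85.5 CPM with the inhibitor, a change of -0.61 ± 0.05 (adjusted p = 8.55e-11). Fzd5, a Wnt receptor, stood at 48.3 and 48.6 and 31.7 and 32.1 CPM, a change of -0.60 ± 0.05 (adjusted p = 1.5e-12). Pcdhgc4 shares its constant exons with the other gamma protocadherins, so the counting may have divided reads between them, and its value of -0.95 is uncertain.

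RefSeq promoters on GRCm38.p6, the 250 bases before the annotated start, are shown for 2 increases and 2 decreases. These were the first of each direction with exactly 1 entry in the RefSeq promoter table. All genes of the chromosome that carries Pcdhgc4 were passed over, so Pcdhgc4, which precedes Cxcr4 among the decreases, is not shown. The aim was to set the start regions of genes that moved in opposite directions side by side. Matches to 4 motifs on either strand are in capitals: CAGGTG (an E-box bound by SNAIL and ZEB factors), TATAAA (the TATA box), GGGCGG (the GC box of SP1) and TGACTCA (the AP-1 site).
Ecel1 (chr1:87156357-87156606, minus strand): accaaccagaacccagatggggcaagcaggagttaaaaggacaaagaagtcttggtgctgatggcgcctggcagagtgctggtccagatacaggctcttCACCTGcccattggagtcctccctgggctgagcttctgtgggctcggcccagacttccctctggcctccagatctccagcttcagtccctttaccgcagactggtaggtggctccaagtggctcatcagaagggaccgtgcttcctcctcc
Tmem26 (chr10:68723496-68723745, plus strand): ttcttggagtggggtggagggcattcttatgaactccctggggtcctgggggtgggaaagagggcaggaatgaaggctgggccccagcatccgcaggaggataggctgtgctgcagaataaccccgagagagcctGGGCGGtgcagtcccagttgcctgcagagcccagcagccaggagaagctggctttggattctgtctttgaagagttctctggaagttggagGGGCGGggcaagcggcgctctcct
Nnat (chr2:157559828-157560077, plus strand): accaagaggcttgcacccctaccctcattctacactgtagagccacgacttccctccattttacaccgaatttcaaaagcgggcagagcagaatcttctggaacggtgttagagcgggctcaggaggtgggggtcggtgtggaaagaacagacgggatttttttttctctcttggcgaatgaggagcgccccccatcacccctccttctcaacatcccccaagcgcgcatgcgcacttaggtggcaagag
Cxcr4 (chr1:128592300-128592549, minus strand): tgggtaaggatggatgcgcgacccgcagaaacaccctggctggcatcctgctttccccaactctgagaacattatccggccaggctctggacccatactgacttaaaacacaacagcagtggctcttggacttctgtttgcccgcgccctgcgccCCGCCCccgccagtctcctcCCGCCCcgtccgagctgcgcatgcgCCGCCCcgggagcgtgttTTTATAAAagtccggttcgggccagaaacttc
The Ecel1 run held 1 E-box in reverse orientation, 151 bases before the start, and the Tmem26 run 2 GC boxes. In the Cxcr4 run 3 GC boxes lay in reverse orientation, and 1 stretch, 30 bases before the start, read as a TATA box on both strands. None of the letters searched were in the Nnat run. Ecel1, an endopeptidase gene, stood at 0.224 and 0.116 CPM in the controls and 0.378 and 0.636 CPM with the inhibitor, a change of 1.60 ± 0.39 (adjusted p = 0.00302). Tmem26, a membrane protein gene, stood at 0.348 and 0.463 and 1.27 and 1.15 CPM, a change of 1.56 ± 0.25 (adjusted p = 1.25e-05). At day 2 these 2 genes were at low levels, and their promoters held 4 and 6 CpG dinucleotides in the printed bases, against 12 and 19 for Nnat and Cxcr4.

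Across the 8091 tested genes with exactly 1 entry in the promoter table, of 10197 with any entry, the called sets differed in such features, counted over 300 bases. An E-box on either strand was in 17.3% of all these promoters, 22.8% of the 653 genes called higher, 13.8% of the 702 called lower and 30.4% of the 92 genes at least 2-fold higher. TATAAA was in 7.56% of all, 11.3% of those higher and 5.98% of those lower, and TGACTCA in 3.55%, 5.36% and 2.28%. GGGCGG went the other way, with 64.7% of all, 66.2% of those higher, 76.1% of those lower and 56.5% of those 2-fold higher. Each motif is a match of letters and not a known site. Promoter CpG number moved with level too, since the quartile with fewest CpGs had a median mean log2 CPM of 2.05 and the quartile with most 5.40. That poorest quartile had 11.6% of its genes called higher and 6.46% lower, and the richest 7.56% and 11.7%. Longer transcripts were called lower more often, 5.50% in the shortest quartile and 14.2% in the longest, and their median level was also higher, at 5.30 against 4.14. The part of level in these shares was not tested.

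Part of the epithelial genes were called higher. Of the 13 keratin and desmosome genes tested, 9 were called higher and 1 lower, with a median log2 fold change of 0.62. The background is 8.73% higher, 9.11% lower and a median of -0.0046, here and for each list below. Lists and members were chosen with earlier results of these data known, so an excess over this background is not an independent result. Krt8 and Krt18 encode the keratin pair of simple epithelia. Krt8 stood at 1.69 and 1.94 CPM in the controls and 4.23 and 4.47 CPM with the inhibitor, a change of 1.26 ± 0.14 (adjusted p = 4.22e-09). Krt18 stood at 0.945 and 0.995 and 2.92 and 2.19 CPM, a change of 1.38 ± 0.19 (adjusted p = 6.56e-07). All inhibitor libraries exceeded all controls, and both values are uncertain because the genome holds many processed copies of these genes. Uninduced MEFs held 3.07 and 3.13 CPM of Krt8 and 10.0 and 9.43 CPM of Krt18, so Krt18 remained below its MEF level with the inhibitor. Pkp1 and Dsp encode desmosomal plaque proteins. Pkp1 rose from 1.72 and 1.62 CPM to 4.07 and 4.13 CPM, by 1.30 ± 0.15 (adjusted p = 3.43e-08). Dsp was more abundant and rose less, from 35.7 and 35.7 CPM to 44.3 and 48.3 CPM, by 0.37 ± 0.05 (adjusted p = 2.51e-07). Krt19, Dsg2, Dsc2, Pkp3 and Ppl made up the rest of the 9. Pkp2 was the member called lower, at 57.1 and 57.1 CPM in the controls and 46.9 and 45.9 CPM with the inhibitor, a change of -0.30.

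Adhesion and tight junction genes divided more. Of 14 tested, 4 were higher (Cdh1, Epcam, Cldn3 and F11r) and 1 lower, with a median of 0.42. Cldn3, a tight junction claudin, rose from 1.22 and 0.880 CPM to 2.34 and 2.50 CPM, by 1.21 ± 0.18 (adjusted p = 3.6e-06). F11r, the junctional adhesion molecule A, rose from 12.6 and 11.2 to 15.6 and 15.5 CPM, by 0.39 ± 0.08 (adjusted p = 0.000166). The summed level of the list was no higher with the inhibitor, at 149 and 150.01 CPM against 153 and 152 CPM in the controls. Epithelial regulators and proteases gave 4 higher and 0 lower of 13, median 0.41. Spint2, an inhibitor of membrane-bound serine proteases, rose from 4.21 and 4.54 CPM to 7.15 and 7.47 CPM, by 0.74 ± 0.10 (adjusted p = 2.87e-07). Ehf, an ETS factor of epithelia, rose to 1.89 and 2.50 CPM with both controls below, by 1.07 ± 0.19 (adjusted p = 6.17e-05). Spint1 was also called at 1.05, and Cdcp1 had no count in either control and 0.178 and 0.0795 CPM with the inhibitor, too few reads for a fold.

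Laminin-332 and its integrins, which anchor epithelial cells to the basement membrane, gave 5 higher and 0 lower of 10, median 0.29. Itga3, the alpha3 integrin subunit, rose from 10.2 and 9.70 CPM to 20.3 and 20.2 CPM, by 1.03 ± 0.08 (adjusted p = 1.19e-12). Uninduced MEFs held 28.1 and 27.4 CPM of Itga3, more than the inhibitor libraries, but only 1.37 and 1.55 CPM of Itgb4. Itgb4, the beta4 subunit of hemidesmosomes, rose from 37.0 and 40.8 to 50.6 and 53.2 CPM, by 0.42 ± 0.05 (adjusted p = 1.86e-08). Itga6, its alpha partner, changed by 0.26 (adjusted p = 5.31e-06), and Lama5 was also called. Of 12 transcription factors of the epithelial to mesenchymal transition, 1 was higher (Twist1, 0.18), beside 8.73% of all genes tested. In the other direction 2 were lower (Twist2, -0.19, and Tcf4, -0.21), beside 9.11%, with 1 lower under upper quartile scaling. The median was -0.05.

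**Figure D3:**
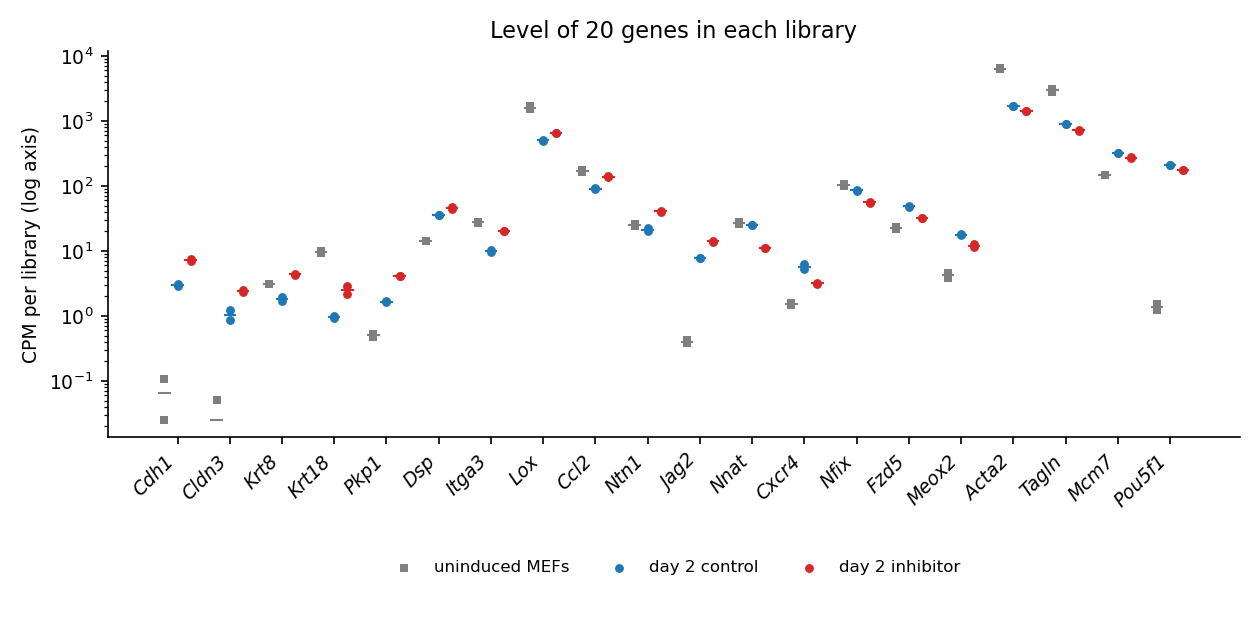
Level of 20 genes in each library (CPM, log axis) for uninduced MEFs (grey), day 2 control (blue) and day 2 inhibitor (red), with short lines at the means; 1 MEF library with Cldn3 at 0 cannot be drawn on this axis. Red and blue points do not overlap for any gene shown, with red above blue from Cdh1 to Jag2 and below from Nnat to Pou5f1.

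Matrix genes and contractile genes of fibroblasts are both lost in reprogramming. Of 23 matrix genes, 11 were higher and 1 lower (0 lower under upper quartile scaling), median 0.10. Lox, the enzyme that crosslinks collagen, rose from 508 and 501 CPM to 645 and 654 CPM, by 0.36 ± 0.03 (adjusted p = 1.74e-10). Col5a1, a fibrillar collagen chain, rose from 717 and 737 to 867 and 871 CPM, by 0.26 ± 0.03 (adjusted p = 5.2e-08). Sparc and Dcn, a matricellular protein and a small proteoglycan, changed by 0.26 (adjusted p = 1.86e-07) and 0.32 (adjusted p = 8.49e-05). The list summed to 18496 and 18591 CPM in the controls and 19825 and 19938 CPM with the inhibitor, against 56248 and 56277 CPM in uninduced MEFs. Against this, 11 of 15 contractile genes of smooth muscle type were lower and 0 higher, median -0.26. Acta2, smooth muscle actin, fell from 1729.8 and 1690.4 CPM to 1432 and 1419 CPM, a change of -0.26 ± 0.03 (adjusted p = 9.87e-08). Tagln, the actin-binding protein transgelin, fell from 886 and 899 to 730.2 and 715 CPM, a change of -0.30 ± 0.03 (adjusted p = 6.95e-09). Actg2, Myl9 and Cnn1, a further actin, a myosin light chain and calponin, changed by -0.35 (adjusted p = 7.13e-10), -0.32 (adjusted p = 6.65e-09) and -0.56 (adjusted p = 0.00261). No library of 1 group overlapped with the other in any of these genes.

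Of 12 YAP and SRF targets, 2 were higher and 4 lower (2 lower under upper quartile scaling). The higher ones were secreted matricellular proteins, Cyr61 at 391 and 386 CPM against 495 and 501 CPM (0.36 ± 0.03, adjusted p = 2.17e-11) and Thbs1 at 0.12 (adjusted p = 0.00557). The lower ones were parts of the cytoskeleton and its signalling, among them Vcl, vinculin, at -0.18 (adjusted p = 7.36e-05) and Tead1, the DNA-binding partner of YAP, at -0.21 (adjusted p = 9.89e-06). TGF-beta and BMP genes gave 9 higher and 1 lower of 16, median 0.21. The ligand Bmp4 rose from 10.8 and 10.8 CPM to 14.5 and 14.2 CPM, by 0.41 ± 0.07 (adjusted p = 1.23e-05). The BMP target Id3 rose from 178 and 179 to 219 and 215 CPM, by 0.28 ± 0.04 (adjusted p = 1.51e-05). Tgfbi, a TGF-beta target, rose by 0.19 (adjusted p = 1.86e-05). Smad7, an inhibitor of the pathway, was the member called lower, at -0.21.

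Of 15 chemokine and inflammatory genes, 9 were higher and 1 lower (Cxcl12, -0.14), median 0.30. Ccl2, the chemokine that draws monocytes, rose from 88.8 and 94.0 CPM to 136 and 141 CPM, by 0.60 ± 0.04 (adjusted p = 7.35e-12). Nfkbia, the NF-kappaB inhibitor and target, rose from 63.8 and 62.1 to 84.7 and 82.9 CPM, by 0.41 ± 0.04 (adjusted p = 1.31e-10). Cx3cl1 and Csf1, a membrane-bound chemokine and the macrophage growth factor, rose by 0.51 (adjusted p = 2.24e-09) and 0.30 (adjusted p = 2.29e-09). Of 15 interferon response genes, 7 were lower and 0 higher, median -0.20. Isg15, a ubiquitin-like protein, went from 26.0 and 24.5 CPM to 19.9 and 19.4 CPM, a change of -0.36 ± 0.08 (adjusted p = 0.000711). Usp18, which removes Isg15 from proteins, went from 7.64 and 6.99 to 4.99 and 5.42 CPM, a change of -0.49 ± 0.13 (adjusted p = 0.00779). Stat2 and Irf9, which transmit the signal, changed by -0.20 (adjusted p = 0.00631) and -0.21 (adjusted p = 0.0123). Immediate early genes gave 7 higher and 0 lower of 15, median 0.13. They included Ier3 at 21.0 and 21.2 CPM against 27.9 and 27.4 CPM (0.39 ± 0.06, adjusted p = 4.01e-06), the phosphatase gene Dusp1 at 0.38 (adjusted p = 5.3e-06), and the AP-1 genes Fosl2 at 0.24 (adjusted p = 1.31e-06) and Jund at 0.22 (adjusted p = 0.000263).

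All 4 genes of the reprogramming cassette were lower with the inhibitor, with a median of -0.24. Pou5f1, which encodes Oct4, stood at 211 and 208 CPM in the controls and 174 and 175 CPM with the inhibitor, a change of -0.26 ± 0.04 (adjusted p = 5.26e-07), which was not called in the fit on TPM. Sox2 stood at 156 and 158 and 132 and 134 CPM, a change of -0.24 ± 0.04 (adjusted p = 1.71e-05). Klf4 and Myc changed by -0.25 (adjusted p = 4.49e-06) and -0.19 (adjusted p = 4.89e-05), and in each gene both inhibitor libraries lay below both controls. Uninduced MEFs held 1.40 CPM of Pou5f1 and 2.36 CPM of Sox2, but 153 CPM of Klf4 and 109 CPM of Myc. The table gives 1 value a gene and does not separate cassette transcripts from those of the cells' own genes. Of 13 tested genes of the pluripotency network, 2 were higher and 1 lower (4 higher under upper quartile scaling). Nanog, a core pluripotency factor, stood at 0.274 and 0.232 CPM and 0.512 and 0.715 CPM, a change of 1.29 ± 0.37 (adjusted p = 0.0110) at a level near the filter. Klf2 changed by 0.41 (adjusted p = 0.00613) and the dioxygenase gene Tet2 by -0.25 (adjusted p = 0.00155).

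Some genes of proliferation and of sterol synthesis were called lower, by small amounts. Of 20 DNA replication genes, 8 were lower and 0 higher, median -0.09. The helicase subunit Mcm6 went from 325 and 318 CPM to 267 and 273 CPM, a change of -0.25 ± 0.03 (adjusted p = 8.66e-08). Rrm1, the large subunit of ribonucleotide reductase, went from 604 and 593 to 502 and 506 CPM, a change of -0.25 ± 0.03 (adjusted p = 2.85e-07). Mcm7 and Mcm3 changed by -0.23 (adjusted p = 5.07e-07) and -0.13 (adjusted p = 0.00310). Mitotic genes gave 3 lower of 18 (Ccnb2, -0.13, Bub1b, -0.12, and Kif20a, -0.09), which is 16.7%, and 0 under upper quartile scaling. Of all genes tested 9.11% were called lower. Among genes at 10 to 100 and over 100 CPM in the empty-virus day 2 control the shares were 11.1% and 19.4%. Sterol synthesis gave 8 lower and 1 higher of 22 (4 lower under upper quartile scaling). Dhcr7, a late enzyme of cholesterol synthesis, and Fdft1, squalene synthase, changed by -0.31 (adjusted p = 7.38e-05) and -0.23 (adjusted p = 4.59e-05), and their regulator Srebf2 by -0.21 (adjusted p = 3.48e-05). Glycolysis gave 1 higher (Slc2a1, 0.14) and 3 lower of 15, the lower ones Gpi1 (-0.12), Eno1 (-0.10) and Tpi1 (-0.09), and 2 higher and 1 lower under upper quartile scaling.

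Mesenchymal transcription factors were among the decreases. Of 4 nuclear factor I genes, 2 were lower and 0 higher. Nfix stood at 83.6 and 88.2 CPM in the controls and 55.3 and 56.4 CPM with the inhibitor, a change of -0.62 ± 0.04 (adjusted p = 2.18e-14), while Nfic changed by -0.13 (adjusted p = 0.00652). Hox genes, which record position along the body and limb axes, gave 10 lower and 2 higher of 37 (1 higher with the size factors of DESeq2), median -0.20. Hoxa10 went from 19.4 and 19.7 CPM to 13.7 and 14.1 CPM, a change of -0.49 ± 0.07 (adjusted p = 3.78e-07). Hoxc6 and Hoxb3 changed by -0.46 (adjusted p = 1.76e-05) and -0.42 (adjusted p = 0.000177). Hoxd12, of the distal limb, went from 2.26 and 1.85 to 1.16 and 0.954 CPM, a change of -0.96 ± 0.20 (adjusted p = 0.000319). The 2 that rose, Hoxd8 and Hoxd9, belong to the same cluster and changed by 0.27 (adjusted p = 0.0458) and 0.34 (adjusted p = 0.0376). Of 19 other mesenchymal homeobox and T-box genes, 4 were lower and 1 higher (2 lower under upper quartile scaling). Meox2 went from 17.3 and 18.1 CPM to 11.6 and 12.6 CPM, a change of -0.55 ± 0.07 (adjusted p = 2.62e-07), and Tbx15 by -0.27 (adjusted p = 1.01e-06), while Meox1, under 1 CPM, rose by 1.34 (adjusted p = 0.0101).

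Few genes of DOT1L's partners and of the elongation machinery were called. Of 22 tested, 0 were higher and 3 lower, median -0.06 (1 and 1 under upper quartile scaling). Those 3 are 13.6% of the list, beside 9.11% of all genes tested. Bcor, a corepressor that binds the DOT1L partner Mllt3, stood at 94.1 and 91.0 CPM in the controls and 73.8 and 77.9 CPM with the inhibitor, a change of -0.29 ± 0.04 (adjusted p = 4.77e-07). Ccnt2, a cyclin of the elongation kinase, changed by -0.15 (adjusted p = 0.0202) and Mllt3 by -0.12 (adjusted p = 0.0343). Other chromatin genes gave 0 higher and 4 lower of 23, which is 17.4%. Dnmt1, the maintenance DNA methyltransferase, changed by -0.21 (adjusted p = 2.77e-06), and the others, Kdm2b, Kdm6b and Suv39h1, lay between -0.19 and -0.12.

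**Figure D4:**
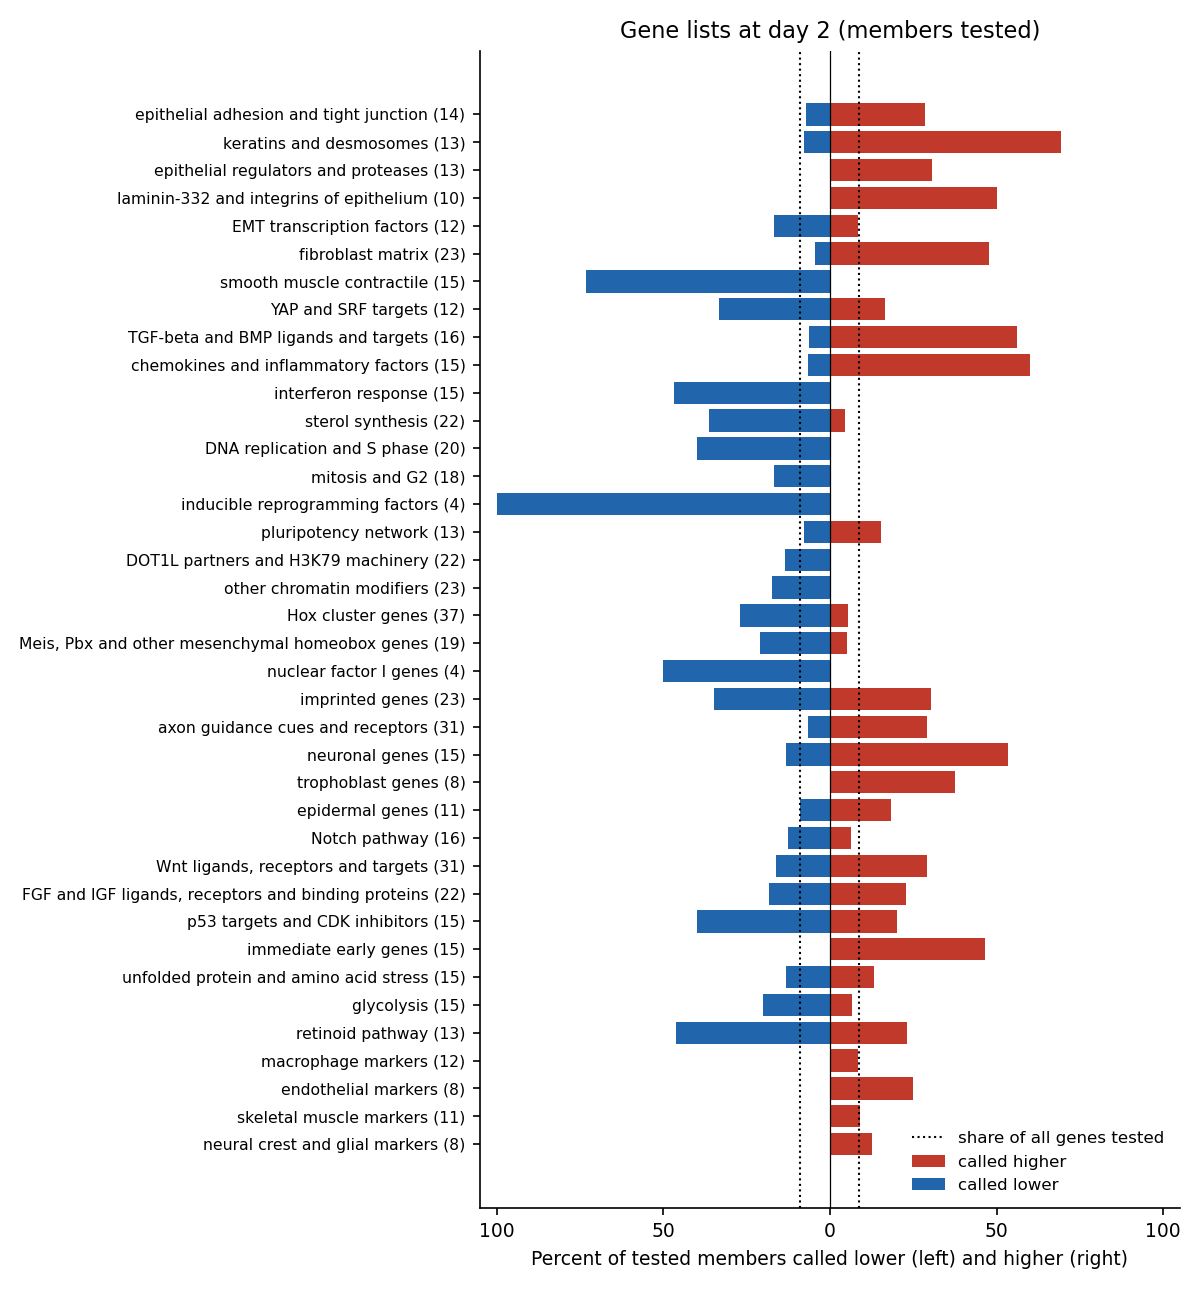
Percent of tested members called higher (red, right) and lower (blue, left) at day 2 in each of 38 gene lists, with the number tested in brackets and dotted lines at the shares over all genes tested, 8.73% and 9.11%. Keratins and desmosomes, chemokines and TGF-beta genes reach farthest right, and the 4 reprogramming factors and the smooth muscle genes farthest left.

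Signalling pathways changed in parts, beside 8.73% of all genes tested called higher and 9.11% lower. Among 31 Wnt genes, 9 were higher and 5 lower. The ligand Wnt4 rose from 1.19 and 1.27 CPM to 2.87 and 3.22 CPM, by 1.30 ± 0.19 (adjusted p = 2.07e-06), and the feedback target Axin2 from 1.99 and 2.31 to 4.88 and 4.61 CPM, by 1.13 ± 0.13 (adjusted p = 3.47e-08). Receptors and coreceptors Fzd5, Fzd7, Lrp5 and Ror2 made up 4 of the 5 lower ones, with the ligand Wnt5a. Among FGF and IGF genes, 5 of 22 were higher and 4 lower. Fgfr1 went from 299 and 294 CPM to 236 and 238 CPM, a change of -0.32 ± 0.03 (adjusted p = 6.88e-10), and Fgfr2 by -0.30 (adjusted p = 6.96e-05), while the scarcer receptor Fgfr3 rose by 0.65 (adjusted p = 3.4e-05). Igfbp3, which binds IGF, rose from 419 and 416 to 528 and 526 CPM, by 0.34 ± 0.03 (adjusted p = 1.03e-10). Notch genes gave 1 higher and 2 lower of 16 (2 and 1 under upper quartile scaling), and the 1 was the ligand Jag2, at 7.94 and 7.85 CPM against 13.6 and 14.5 CPM (0.83 ± 0.08, adjusted p = 3.19e-10). In the retinoid pathway 3 of 13 were higher and 6 lower, median -0.13. Cyp26b1, which degrades retinoic acid, and Dhrs3, which returns retinal to retinol, changed by -0.42 (adjusted p = 1.49e-05) and -0.43 (adjusted p = 2.06e-05), and Rbp4, the retinol carrier, by 1.19 (adjusted p = 0.000868).

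Imprinted genes changed in number and in both directions, with 7 of 23 higher and 8 lower. Peg10, a retrotransposon-derived gene of the placenta, rose from 34.9 and 39.0 CPM to 58.6 and 55.9 CPM, by 0.63 ± 0.05 (adjusted p = 4.71e-12), and Mest from 98.4 and 98.7 to 133 and 128 CPM, by 0.40 ± 0.03 (adjusted p = 1.89e-11). Igf2, the growth factor, went from 340.5 and 349 CPM to 264 and 259.7 CPM, a change of -0.40 ± 0.03 (adjusted p = 1.5e-11), after standing at 3652 CPM in uninduced MEFs. Some genes typical of other lineages were higher. Neuronal genes gave 8 higher and 2 lower of 15 (1 lower under upper quartile scaling), median 0.45. Tubb3, the neuronal tubulin, rose from 35.5 and 36.1 CPM to 53.2 and 53.1 CPM, by 0.57 ± 0.06 (adjusted p = 3.39e-09), and the microtubule regulator Stmn2 from 181 and 181 to 217 and 211 CPM, by 0.25 ± 0.03 (adjusted p = 1.07e-06). Axon guidance genes gave 9 higher and 2 lower of 31 (1 lower under upper quartile scaling). Ntn1, the guidance cue netrin, rose from 20.0 and 22.5 CPM to 40.3 and 41.9 CPM, by 0.95 ± 0.06 (adjusted p = 5.76e-14), and Efna5 changed by -0.31 (adjusted p = 3.14e-05). Trophoblast genes gave 3 higher and 0 lower of 8, among them Tcfap2c at 0.124 and 0.347 and 0.779 and 0.795 CPM (1.70 ± 0.37, adjusted p = 0.000669). Epidermal genes gave 2 higher and 1 lower of 11, with Trp63 at 1.32 (adjusted p = 0.00326) and Dsc3 at 1.50 (adjusted p = 0.000786) from under 1 CPM.

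Stress pathways gave small and mixed changes. Of 15 p53 targets and inhibitors of cyclin-dependent kinases, 3 were higher and 6 lower, with Cdkn2b at 0.26 (adjusted p = 0.000174) and Mdm2 at -0.14 (adjusted p = 0.00113). Unfolded protein and amino acid stress genes gave 2 higher and 2 lower of 15 (4 and 1 under upper quartile scaling). Sums of markers of other cells changed by a few CPM at most, and their calls stand beside 8.73% of all genes tested called higher. Median log2 fold changes were 0.09 for macrophage, 0.52 for endothelial, 0.13 for skeletal muscle and 0.17 for neural crest and glial markers. The median over all genes tested was -0.0046. Macrophage markers summed to 69.8 and 66.8 CPM in the controls and 71.7 and 73.4 CPM with the inhibitor, with 1 of 12 called higher (Itgam, 0.35; 2 under upper quartile scaling). Endothelial markers summed to 86.8 and 85.3 against 84.5 and 86.5 CPM, with 2 of 8 higher, Kdr and Egfl7, and 3 of 12 at 0 in all 4 libraries. Since 8 of the 12 were under 1 CPM in all 4 libraries, this sum rests on the few others. Skeletal muscle markers summed to 2.99 and 3.98 against 4.21 and 4.85 CPM, with 1 of 11 higher (Tnnt2). Of the 12, all but 1 were detected, but 11 were under 1 CPM in all 4 libraries. Neural crest and glial markers summed to 8.09 and 8.75 against 9.55 and 9.68 CPM, with 1 of 8 higher (Fabp7). In the skeletal muscle and neural crest lists and in the macrophage list both inhibitor sums exceeded both control sums, by a few CPM, and their part in the increases above was not tested.

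The empty-virus experiment repeats the day 2 comparison in cells of the same genotype. There 1013 of 15044 genes tested were called (6.73%), 484 higher (3.22%) and 529 lower (3.52%), or 693 and 228 in the fit on TPM. Without 1 library the count was 296 or 428 (control replicate 1 or 2), 270 (inhibitor replicate 1) or 896 (inhibitor replicate 2). Its libraries were shallower, 18534377 to 35852109 counts over the virus and ESC set, and not described as paired-end or spiked with human RNA. The virus and these differences cannot be told apart. Of the 1264 genes called higher in the timecourse, 136 were also called higher there, which is 11.0% of the timecourse set and 28.1% of the empty-virus set, and 22 were called lower. Of the 1319 called lower, 257 were called lower there, 19.5% and 48.6% of the sets, and 11 higher. The median change there was 0.11 for the genes higher and -0.12 for the genes lower, beside 0.44 and -0.18 in the timecourse and -0.0055 over all genes there. Cells with the Cdh1 virus gave 759 calls (5.05%), 2.82% higher and 2.23% lower, which took in 142 of the genes higher (11.4%, and 33.5% of that set) and 158 of those lower (12.0% and 47.2%). That count was 255 or 124 without control replicate 1 or 2 and 1253 or 307 without inhibitor replicate 1 or 2. A test of the difference between the timecourse effect and the empty-virus effect, in a joint fit of 26 libraries, called 636 of 14808 genes (4.29%), 346 above 0 (2.34%) and 290 below (1.96%), or 461 and 174 under upper quartile scaling. It called 801 without inhibitor replicate 2 of the empty-virus cells, 531 without their control replicate 2, and between 297 and 319 without any 1 of the other 6 libraries. Of the genes higher in the timecourse, 233 had a difference above 0 and 10 below. The genes were picked with the timecourse libraries that also enter the difference.

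E-cadherin differed between the experiments. Cdh1 stood at 4.96 and 5.44 CPM in the empty-virus controls and 3.26 and 5.89 CPM with the inhibitor, so the groups overlapped, and the change was -0.14 ± 0.17 (adjusted p = 0.701). The difference between experiments was 1.42 ± 0.20 (adjusted p = 4.95e-05). Krt8 stood at 3.20 and 3.17 and 2.94 and 4.00 CPM, also overlapping, with a difference of 1.10 ± 0.21 (adjusted p = 0.00151). Pkp1, Dsp and Spint2 gave 0.01, -0.01 and 0.05 there, each with the difference called. Of the 14 largest increases, which were picked by their timecourse change, 1 was called higher in empty-virus cells (Krt18), and the difference was called for 10. A few genes went the other way. Itgb4 stood at 16.4 and 15.9 CPM in the empty-virus controls and 8.76 and 10.1 CPM with the inhibitor, a change of -0.77 ± 0.10 (adjusted p = 7.26e-05), and Cdh1-virus cells gave -0.77 ± 0.10 (adjusted p = 7.5e-05). Tubb3 and Tgfbi also fell in empty-virus cells, by 0.44 ± 0.09 (adjusted p = 0.00323) and 0.38 ± 0.06 (adjusted p = 0.000344) on the log2 scale.

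Other changes were present in both experiments. Nnat stood at 20.5 and 19.7 CPM in the empty-virus controls and 11.2 and 10.8 CPM with the inhibitor, a change of -0.87 ± 0.09 (adjusted p = 3.63e-06), and gave -0.85 ± 0.09 (adjusted p = 5.86e-06) with the Cdh1 virus. Cxcr4 gave -0.85 ± 0.16 (adjusted p = 0.00202) in empty-virus cells. Lox, Ccl2, Peg10 and Itga3 rose there by 0.60, 0.43, 0.61 and 0.53, all called. The sizes were not all alike, since the difference between experiments was called for 2 of them. It was 0.49 ± 0.10 for Itga3 (adjusted p = 0.00482) and -0.24 ± 0.07 for Lox (adjusted p = 0.0481). The 4 reprogramming factors were all lower, with Pou5f1 at 115 and 120.5 CPM in controls and 89.9 and 86.9 CPM with the inhibitor (-0.41 ± 0.06, adjusted p = 0.000262). Counts by list in empty-virus cells are given over the members tested in the timecourse. Keratins and desmosomes had 2 higher and 0 lower of 13, smooth muscle genes 2 and 1 of 15, and neuronal genes 0 and 3 of 15. Chemokines had 6 higher and 0 lower of 15, sterol synthesis 1 and 9 of 22, and DNA replication 0 and 7 of 20. Of all genes tested there, 3.22% were called higher and 3.52% lower, against 8.73% and 9.11% in the timecourse. Fewer calls in a list there thus do not by themselves show a difference particular to that list. In all 3 day 2 comparisons together, over the 14159 genes tested in each, 74 genes were called higher every time and 100 lower, 5.96% and 7.60% of the timecourse sets.

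**Figure D5:**
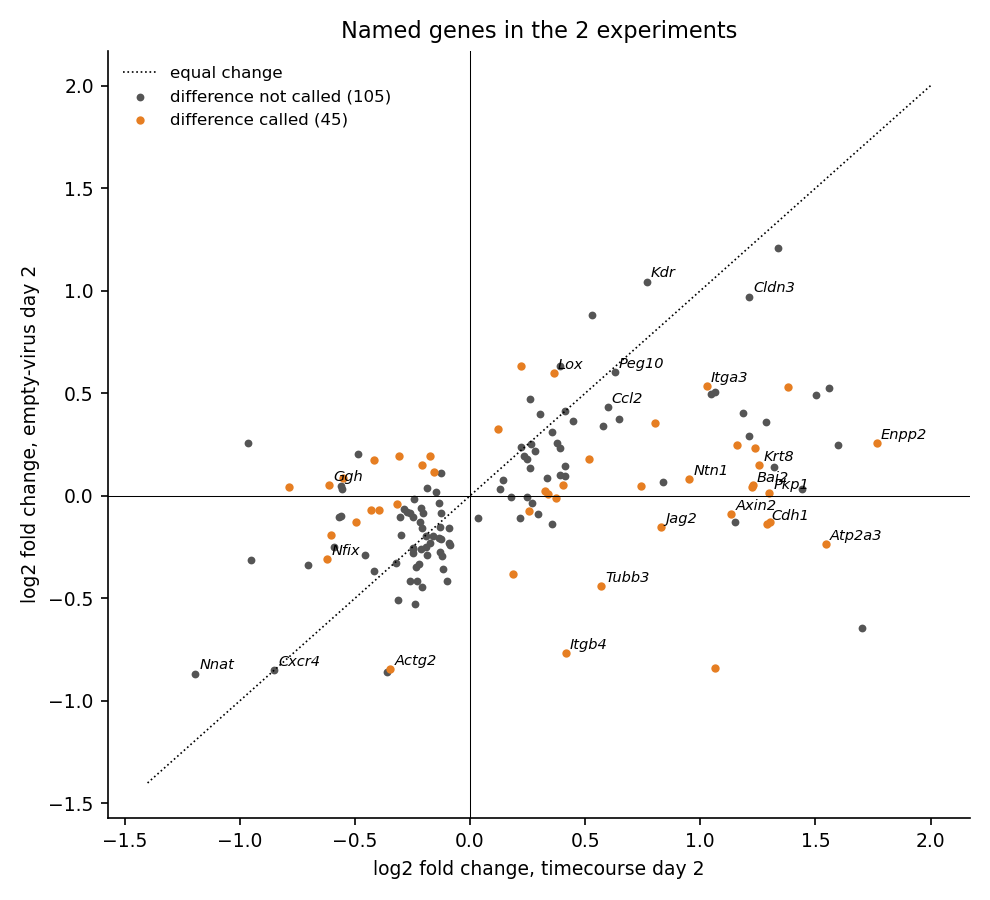
Change with the inhibitor at day 2 in empty-virus cells (vertical axis, log2 fold change) against the timecourse (horizontal axis) for 150 named genes, with the 45 whose difference between experiments was called in orange and a dotted line at equal change. Cdh1, Krt8, Pkp1 and Jag2 lie far right near 0 on the vertical axis, and Nnat, Cxcr4, Peg10 and Ccl2 lie near the dotted line.

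By day 4 most of the day 2 changes were found again in cells kept on the inhibitor. The full window called 5036 of 14473 genes (34.8%) against day 4 controls, 2752 higher (19.0%) and 2284 lower (15.8%), or 3203 and 1697 under upper quartile scaling. Of the 1264 genes higher at day 2, 926 were higher at day 4 (73.3%, and 33.6% of the day 4 set) and 36 lower. Of the 1319 lower at day 2, 844 were lower (64.0% and 37.0%) and 41 higher. The early window, in which the inhibitor was withdrawn at day 2, called 815 genes (5.63%) against the same day 4 controls, 3.19% higher and 2.45% lower, and between 380 and 450 without any 1 of its 4 libraries. It took in 206 of the genes higher (16.3%) and 143 of those lower (10.8%). The median change of the genes higher at day 2 was 0.50 in the full window and 0.10 in the early window, beside 0.45 at day 2, and of the genes lower it was -0.17 and -0.03, beside -0.18. The effect in the early window at day 4 minus the effect at day 2 was called for 1013 genes (7.0%), 560 above 0 (3.87%) and 453 below (3.13%), or 430 and 552 under upper quartile scaling. Among the genes higher at day 2 this difference was below 0 for 340 and above 0 for 4. The effect in the full window minus that at day 2 was called for 1329 (9.18%), 5.61% above 0 and 3.57% below, and for 195 above and 112 below among the genes higher. Without 1 of the 8 libraries these counts were between 592 and 740 and between 880 and 1135. Both differences contain the day 2 libraries that picked the genes.

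Single genes took different courses over the 2 further days. Cdh1 stood at 8.02 and 7.53 CPM in the day 4 controls, 11.9 and 12.6 CPM in the early window and 28.8 and 27.0 CPM in the full window, with changes of 0.65 ± 0.09 (adjusted p = 1.74e-06) and 1.84 ± 0.08 (adjusted p = 5.23e-21). The 3 groups did not overlap. Krt8 stood at 3.75 and 3.43, 3.98 and 4.09 and 16.1 and 17.0 CPM in the same order, with changes of 0.17 ± 0.12 (adjusted p = 0.525) and 2.20 ± 0.10 (adjusted p = 6.44e-21). Nnat, the first of the 14 decreases named above, stood at 40.3 and 40.6 CPM in the controls, 37.1 and 40.3 CPM in the early window and 23.5 and 21.8 CPM in the full window. Of these 3 groups it was low in the full window alone, with changes of -0.06 ± 0.06 (adjusted p = 0.651) and -0.84 ± 0.06 (adjusted p = 8.39e-15). Nfix and Meox2 gave larger decreases in the full window (-1.07 and -1.17) and remained lower in the early window (-0.27 and -0.48). The reprogramming factors were lower in the full window, Pou5f1 by 0.32 ± 0.04 (adjusted p = 1.49e-09) on the log2 scale, and in the early window 0 of the 4 were called. Enpp2 and Tril, among the largest increases at day 2, gave 0.60 ± 0.10 (adjusted p = 6.02e-06) and 0.07 ± 0.09 (adjusted p = 0.596) in the full window. By list, Hox genes had 26 lower and 2 higher of 37 in the full window. Keratins and desmosomes had 12 higher and 1 lower of 13. Sterol synthesis had 10 higher and 0 lower of 22, beside 1 higher and 8 lower at day 2. Smooth muscle genes had 5 higher and 4 lower of 15. Of all genes tested, 19.0% were called higher and 15.8% lower in the full window, against 8.73% and 9.11% at day 2.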

How the data were processed

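Polyadenylated RNA was sequenced, and the deposited files hold 1 table of 20325 mouse genes for each library. Trimmomatic, Bowtie and RSEM 1.2.4 were the authors' tools and mm9 and hg18 their builds, per the submitters' processing notes; other settings are not given in the sources used here. The deposited expected counts are RSEM's estimates per gene, which divide reads shared by several genes, and were not normalized by the authors. RSEM also gave the deposited TPM values, which correct for transcript length within each library. Per the labels, 20 ng of human 293T RNA was added to 1 µg in the timecourse, but human genes were not analysed here, so each change is relative to the rest of the mouse RNA.

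Rounded expected counts entered edgeR's quasi-likelihood test (edgeR 4.0.16 in R 4.3.3; robust fits, TMM, filterByExpr with minimum count 10 and total 15, 1 coefficient per group). The fits held 14 timecourse libraries (14473 genes kept, 5852 left out, 7 residual degrees of freedom), 14 virus and ESC libraries (15044 and 5281), or 26 of both (14808 and 5517, without the 2 ESC libraries). P-values were adjusted by Benjamini-Hochberg over all genes tested. Alternatives were DESeq2 1.42.0, its size factors in edgeR, upper quartile scaling, no filter, only the 4 libraries compared, limma 3.58.1 on log2(TPM + 0.5), the replicate number as a block, and leaving out each library. The tests were first tried on simulated counts with known changes. Differences between replicates exceeded counting noise in each day 2 group, so no 2 libraries looked like copies.

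The 38 lists held 654 symbols, of which 649 matched a gene, 609 of them tested; the other 5 were not analysed here. Members and lists were chosen with earlier results of these data known. Named genes were, among called genes with groups apart and a mean log2 CPM of at least 2, the 14 largest changes in each direction, up to 4 called members of each list with the smallest p, the 4 reprogramming factors, Cdh1 and Dot1l. A few further list members, chosen after their values were seen, are given where a list held 5 or fewer in that direction. Values of a few called list members are not reported here, and counts by list include them. The 8 libraries sorted by CDH1 and the day 4 group with a middle window were compared with nothing here. CPM intervals for single libraries are not given, since the replicate spread exceeds counting error.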

Additional observations from a re-analysis of the deposited data

Results flagged for a closer look

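The inhibitor's effect at day 2 differed between the timecourse and the empty-virus experiment for 636 genes, by the test of the difference itself in edgeR's quasi-likelihood fit. Of the 28 genes with the largest day 2 changes, those whose difference was called above 0, with its log2 value, were Atp2a3 (1.77), Enpp2 (1.50), Cdh1 (1.42), Pkp1 (1.28), Bai2 (1.17), Trpv4 (1.17), Krt8 (1.10), Tril (1.00), Gm684 (0.91) and Krt18 (0.85). Those called below 0 were Nfix (-0.32), Fzd5 (-0.42), Meox2 (-0.64), Ggh (-0.67) and Fcrls (-0.84). The other 13 genes were not called. All 14 increases had a difference above 0 and all 14 decreases one below, with values as small as -0.008 for Cxcr4 and 0.23 for Cldn3. The 28 genes were picked by the timecourse effect, which enters this difference, so the choice of genes favours these signs. The experiments differ in virus, depth and library description, and the part of each was not tested.

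The effect in the full window at day 4 differed from the effect at day 2 for 1329 genes. Among the same 28 genes, the difference was called above 0 for Krt18 (1.03), Bai2 (1.00), Krt8 (0.95), Cldn3 (0.90), Atl1 (0.62), Fcrls (0.56), Cdh1 (0.55), Nnat (0.35) and Fzd5 (0.30). It was called below 0 for Ggh (-0.33), Nfix (-0.45), Cxcr4 (-0.56), Trpv4 (-0.58), Meox2 (-0.62), Enpp2 (-1.17) and Tril (-1.17). For Atl1, Fcrls, Fzd5 and Nnat, which were lower at day 2, a positive value is a smaller decrease or none, and for the others named it is a larger increase.

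The effect in the early window, measured 2 days after the inhibitor was withdrawn, differed from the effect at day 2 for 1013 genes. Among the 28 genes, the difference was called above 0 for Nnat (1.13), Atl1 (0.83), Fcrls (0.72), Pnpla3 (0.71), Zfp750 (0.69), Fzd5 (0.58), Cxcr4 (0.48), Ggh (0.47) and Nfix (0.35). It was called below 0 for Cdh1 (-0.64), Pkp1 (-0.94), Gm684 (-0.94), Tril (-0.98), Stap2 (-0.99), Trpv4 (-1.05), Krt8 (-1.09), Krt18 (-1.21), Tmem26 (-1.44), Atp2a3 (-1.49) and Enpp2 (-1.57). Each of these called values is opposite in sign to the change at day 2. The 28 genes were picked by their day 2 change, and the day 2 libraries enter each difference. Their floor on level also took in the day 4 libraries, with and without inhibitor.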

How the results depend on the processing

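The day 2 count of 2583 genes lay between 1764 (limma on TPM) and 3589 (only the 4 libraries compared) under the alternatives with all libraries, and between 1510 and 1583 without 1 library. DESeq2 called 2013, of which 1977 were among the 2583. The share called higher depended on the scaling, 48.9% with TMM, 63.4% under upper quartile scaling and 72.0% on TPM. The median log2 change of all genes was -0.0046 with TMM and 0.0267 under upper quartile scaling. The count in Cdh1-virus cells was 209 by limma on TPM and 138 with only its 4 libraries; the cause was not tested. Without 1 library, counts ranged from 270 to 896 in empty-virus cells, from 124 to 1253 in Cdh1-virus cells, from 297 to 801 for the timecourse effect minus the empty-virus effect, from 880 to 1135 for the full window minus day 2, from 592 to 740 for the early window minus day 2, from 3636 to 4200 for the full window and from 380 to 450 for the early window. In these fits a group holds 1 library, which is assumed to vary like the other groups.

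Of the 151 named genes, 0 changed direction under any of these alternatives that gave a value for them, which left out 2 genes for limma on TPM and 1 with only the 4 libraries compared. Between 26 and 29 lost the call without 1 library, 44 in at least 1 of the 4 fits, among them Ecel1, Gpr149, Pnpla3, Zim1, Nanog, Klf2, Twist1, Twist2, Tcfap2c, Trp63, Dsc3, Meox1, Nfic, Mcm3, Stat2, Irf9, Usp18, Itgam, Kdr, Egfl7 and Fabp7. Eomes, Gata2, Mllt3, Notch2, Phgdh, Thbs1 and Tpi1 lost it in all 4. DESeq2 lost 7 of the 151, limma on TPM 28 of 149 and upper quartile scaling 12.

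Replicate numbers were shared across groups, but same-numbered libraries did not deviate together: the correlation of replicate differences across genes was 0.057 in the timecourse day 2 groups and between -0.224 and -0.042 in the other comparisons. With a replicate block the counts were 2561 at day 2, 925 in empty-virus cells, 635 in Cdh1-virus cells, 581 for the timecourse effect minus the empty-virus effect, 1327 and 1035 for the full and early windows minus day 2, and 5043 and 843 for the windows themselves. Crossing the numbers, an alternative chosen after seeing the data, gave 1117, 974 and 764 in empty-virus cells, Cdh1-virus cells and the early window.

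With 2 libraries a group, small changes of scarce genes were not detectable at this depth, and a gene that was not called is not shown to be unchanged. The virus libraries held fewer counts and spread more, with a common biological coefficient of variation of 5.56% against 2.95% in the timecourse. The spread of separate cultures or embryos is not known from the labels.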

Other observations

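The genes called in the same direction in the timecourse, in empty-virus cells and in Cdh1-virus cells were looked at with their values known, and these examples were chosen after those values were seen. They do not stand for the sets, of which 74 genes were higher and 100 lower. Among the higher ones, Gfra1, the GDNF coreceptor, stood at 5.10 and 5.26 CPM in the timecourse controls and 9.64 and 10.1 CPM with the inhibitor, with log2 fold changes of 0.93 ± 0.09, 0.47 ± 0.12 and 0.60 ± 0.11 in the 3 comparisons in that order. Ppbp, a platelet-type chemokine, gave 0.63, 0.69 and 0.62, and the neutrophil chemokine Cxcl1 gave 0.55, 0.46 and 0.54. Npr3, the clearance receptor of natriuretic peptides, gave 0.46, 0.68 and 0.40, and Hmcn1, a basement membrane protein, 0.75, 0.56 and 0.51. The largest of the 3 values was not always that of the timecourse, and Rgs4, a regulator of G protein signalling, gave 0.33, 0.98 and 0.65.

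Among the 100 lower, Avil, the actin-severing protein advillin, stood at 19.9 and 17.7 CPM in the timecourse controls and 15.2 and 15.1 CPM with the inhibitor, with changes of -0.31 ± 0.07, -1.52 ± 0.10 and -1.17 ± 0.09. Tes, testin of focal adhesions, gave -0.50, -0.39 and -0.28, and Iqgap2, a scaffold protein, -0.27, -0.59 and -0.35. Gpr124, an adhesion receptor, gave -0.41, -0.41 and -0.36. Cth, which makes cysteine from cystathionine, gave -0.30, -0.52 and -0.44. Mpeg1, which is known from macrophages, gave -0.39, -0.76 and -0.60. The macrophage marker sum of the timecourse was 69.8 and 66.8 CPM in the controls and 71.7 and 73.4 CPM with the inhibitor. In empty-virus cells 0 macrophage markers were called higher and 3 lower (median -0.14), and in Cdh1-virus cells 0 and 0 (median 0.09). The part of macrophage number in these changes was not tested.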
